A study of Mus musculus with 4 samples.

Results

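The 9 genes described here mark T cells and the branches into which they differentiate: *Cd3e*, *Cd4* and *Cd8a*, which define the lineage and its main branches, *Foxp3*, *Gata3* and *Tbx21*, which encode the transcription factors of regulatory, type 2 and type 1 helper T cells, and *Ifng*, *Gzma* and *Gzmb*, which encode products released by activated T cells. They were chosen by symbol, as every probe that the array files name for 1 of them, which gave 11 probes for 9 of 22368 named genes. *Cd4* and *Cd8a* had 2 probes each and the other 7 genes had 1. The samples were 4 pools of colon RNA, each on 1 Agilent Whole Mouse Genome array of the same slide, from male *Pla2g3*+/+ or *Pla2g3*-/- mice of the B6.129 (n3) background, recorded as 42-wk-old, that received saline as vehicle or azoxymethane (AOM). AOM, a carcinogen that induces tumors of the distal colon in rodents, was given intraperitoneally at 10 mg/kg once weekly for 6 weeks, and the colon was taken 28 weeks after the last of these injections. *Pla2g3* encodes a secreted phospholipase A2, and the comparisons ask how the colon differs when it is deleted, with and without the carcinogen. Each pool held RNA of 3 to 5 mice per the labels, which call the AOM tissue colorectal cancer and the vehicle tissue normal colon, whereas the study's text describes whole descending colon. A group is thus 1 array, so that replicates are lacking, no p-value was computed, and array position and group cannot be told apart.

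T cells recognise antigen through a receptor that signals through the CD3 chains, and the coreceptors CD4 and CD8 direct it to class II or class I major histocompatibility molecules. Helper T cells take on type 1, type 2 or regulatory programmes under T-bet (encoded by *Tbx21*), GATA3 and FOXP3, and cytotoxic cells kill through granzymes and secrete interferon gamma. The colon normally holds T cells in the lamina propria and within the epithelium, where many intraepithelial lymphocytes carry CD8 and granzymes.

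*Cd4* and *Cd8a* are the members for which the array reads a gene at more than 1 place, so the 3′ ends of their 60-base probes are shown, each as its last 30 bases with any AATAAA hexamer, the letters of a common polyadenylation signal, in capitals. Positions are on mm9 and, like the start within the designed transcript, are quoted from the array files. The brighter *Cd4* probe lies at chr6:124814711-124814770 on the minus strand and starts at base 3035 of its transcript, the dimmer one lies at chr6:124817706-124817765 and starts at base 1242. The brighter *Cd8a* probe lies at chr6:71328911-71328970 on the plus strand and starts at base 2875, the dimmer one lies at chr6:71323885-71323944 and starts at base 464. The single *Cd3e* probe, at chr9:44806828-44806887 on the minus strand from base 1374, is added because its values differed from those of the other CD3 chains.
Cd4, brighter probe: acagaaaAATAAAggctataAATAAAatgc
Cd4, dimmer probe: gcagtgtctactgagtgaaggtgataaggt
Cd8a, brighter probe: tctatctattgttactatcattttatacct
Cd8a, dimmer probe: cgaaggctactatttctgctcagtcatcag
Cd3e: taatgcaaaaggcAATAAAgtgtattggct
The brighter *Cd4* probe held 2 hexamers and the *Cd3e* probe 1, while the other 3 pieces held none.

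The scanner software called 64.8% to 69.4% of the 43020 spots of an array well above background and none saturated. The targeted gene did not follow the genotype labels. By its brightest probe the vehicle arrays labelled *Pla2g3*+/+ and *Pla2g3*-/- had signals of 343 and 426 (log2 ratio 0.30, array error 0.2). The AOM arrays had 304 and 1632 (2.59, array error 0.2). The vehicle gap by this probe was thus within 2 array errors, unlike that after AOM. By the other probes the log2 ratios were 0.08 and at least 1.21 with vehicle, and 2.74 and 1.46 after AOM. Directions below therefore follow the labels only. Which part of the gene was deleted, relative to the 3 probes for it, is not given in the sources used here. Colon epithelium markers (10 of 10) were detected on every array and smooth muscle markers on every array with the exception of 1, *Lmod1*, on the AOM array labelled *Pla2g3*+/+. That array stood apart, with all 10 smooth muscle markers over 2-fold below the vehicle array of the same label (median log2 ratio −4.34), 6 of 10 epithelial markers lower (−2.35) and 9 of 10 Wnt targets of colon tumors higher (3.12). The vehicle array labelled *Pla2g3*-/- also stood apart, with all 10 pancreatic acinar markers over 2-fold above the other vehicle array (4.98).

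Signals are background-subtracted intensities, and scaled signals are a percentage of the 75th percentile of the array, which was an intensity of 646 and 649.8 with vehicle and 1309 and 1169 after AOM, for *Pla2g3*+/+ and *Pla2g3*-/- in turn. Errors of signals are those of the scanner software's error model for a single spot, or the SD over spots where a probe had several. For log2 ratios and combined errors, probes with several spots took this SD on the log2 scale over the square root of the number of spots. That measure is unlike the error model, so the small errors of *Cd8a* cannot be set against those of other genes. All errors cover the array only, not the mice. All 9 members were well above background on the vehicle arrays and on the AOM array labelled *Pla2g3*+/+, and 6 of 9 were on the AOM array labelled *Pla2g3*-/-, where *Cd8a*, *Tbx21* and *Ifng* were not.

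**Figure D1:**
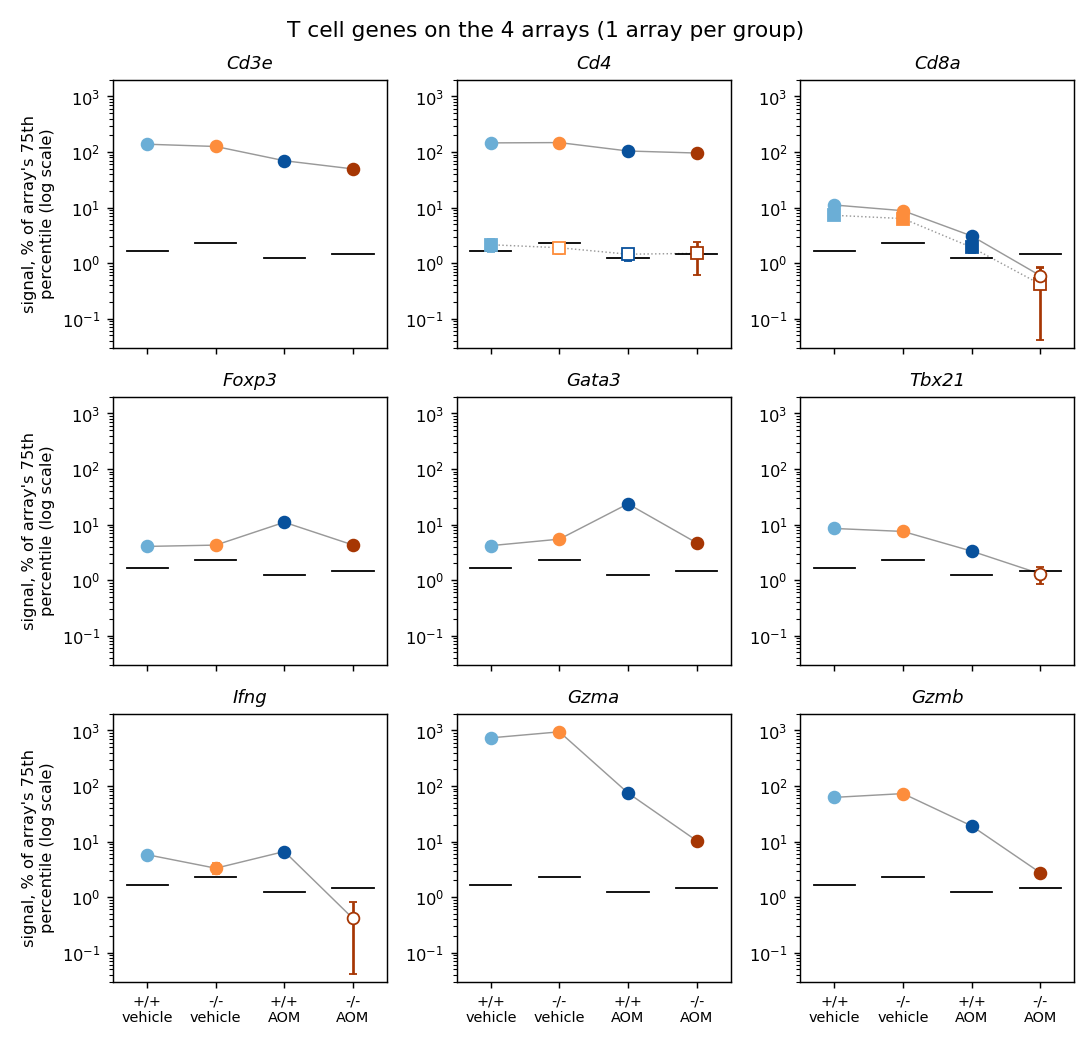
Scaled signal of each of the 9 genes, as a percentage of the array's 75th percentile on a log axis, on the 4 arrays in the order *Pla2g3*+/+ vehicle, *Pla2g3*-/- vehicle, *Pla2g3*+/+ AOM and *Pla2g3*-/- AOM as labelled. Circles are the probe that represents the gene, squares its other probe, open symbols are not well above background, bars are the array error (lower arms are cut short where they would reach 0) and black dashes the lowest signal well above background on that array; *Gzma* runs from 736 to 10.4, while *Foxp3* and *Gata3* peak on the AOM array labelled *Pla2g3*+/+.

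Of the lineage genes, *Cd3e* and *Cd4* stayed within 2-fold between the genotypes, and *Cd8a* fell below background on 1 array. *Cd3e*, a chain of the CD3 complex, gave signals of 892 ± 89.2 (*Pla2g3*+/+) and 817 ± 81.8 (*Pla2g3*-/-) on the vehicle arrays and of 913 ± 91.4 and 579.8 ± 58.2 on the AOM arrays. Scaled to the array, these were 138%, 126%, 69.7% and 49.6%. The vehicle arrays were thus the higher pair and lay within 2 combined array errors of each other, and the AOM array labelled *Pla2g3*-/- was the lowest. The log2 ratio of *Pla2g3*-/- to *Pla2g3*+/+ was −0.14 ± 0.20 (array error) with vehicle and −0.49 ± 0.20 after AOM, or 1.41-fold lower. Between treatments, the AOM array was 1.98-fold lower for *Pla2g3*+/+ and 2.53-fold lower for *Pla2g3*-/-, of which only the second passed 2-fold, and without scaling between arrays the first was at a log2 ratio of 0.03 and the second at −0.50. In bulk tissue, fewer cells of a type and less RNA per cell cannot be told apart.

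*Cd4*, the coreceptor of helper T cells, was the member that varied least between the genotypes. Its brighter probe gave 942 ± 94.3 and 961 ± 96.1 with vehicle and 1365 ± 137 and 1120 ± 112 after AOM, or scaled signals of 146%, 148%, 104% and 95.9%. Within each treatment the genotypes lay within 2 combined array errors, with log2 ratios of 0.02 ± 0.20 with vehicle and −0.12 ± 0.20 after AOM. After scaling, AOM arrays were 1.40-fold lower for *Pla2g3*+/+ and 1.54-fold lower for *Pla2g3*-/- than vehicle arrays, and higher in both without scaling (log2 ratios of 0.54 and 0.22). The other probe was near background throughout, at 13.8 ± 3.67, 12.3 ± 2.90, 18.9 ± 4.77 and 17.5 ± 10.3 (SD over 9 or 10 spots), with 5 of 9, 1 of 10, 4 of 10 and 3 of 9 spots well above background in turn. It therefore gave no ratio between the genotypes, and the *Cd4* values rest on the brighter probe alone.

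*Cd8a*, the coreceptor chain of cytotoxic T cells, was highest with vehicle and lowest on the AOM array labelled *Pla2g3*-/-. Its brighter probe, printed on 10 spots, gave 71.8 ± 5.63 and 57.1 ± 2.56 with vehicle and 40.4 ± 5.6 after AOM for *Pla2g3*+/+ (SD over spots), with 10 of 10 spots well above background on each of these arrays, and 6.97 ± 2.42 after AOM for *Pla2g3*-/-, with 0 of 10. Before scaling, its spots ran from 33.4 to 51.8 and from 4.86 to 12.9 on the AOM arrays, and from 53.4 to 81.5 over both vehicle arrays. These are replicate spots of 1 array per group, so the ranges describe the arrays and not the mice. The dimmer probe had the same order, with 46.8, 41.2, 25.2 and 4.88, the last not well above background. After AOM the array labelled *Pla2g3*-/- was at least 2.11-fold lower by the brighter probe and at least 1.32-fold lower by the dimmer one, so that the call past 2-fold rests on the brighter. Relative to vehicle, AOM was 3.60-fold lower for *Pla2g3*+/+ and at least 6.00-fold lower for *Pla2g3*-/-. Without scaling, the log2 ratio of AOM to vehicle was −0.83 for *Pla2g3*+/+, within 2-fold, and at most −1.74 for *Pla2g3*-/-. With vehicle the difference between the genotypes was 1.27-fold (log2 ratio −0.34).

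The transcription factors moved in different directions with AOM. *Foxp3*, the defining factor of regulatory T cells, gave 26.1 ± 3.65 and 27.7 ± 4.43 with vehicle, and 144 ± 14.9 and 50.1 ± 6.36 after AOM, for *Pla2g3*+/+ and *Pla2g3*-/- in turn. The AOM array labelled *Pla2g3*+/+ was the single high array, and the scaled signals of the other 3 (4.04%, 4.27% and 4.29%) lay within 2 combined errors of their neighbours. AOM over vehicle was 2.72-fold higher for *Pla2g3*+/+ and at a log2 ratio of 0.01 ± 0.29 for *Pla2g3*-/-, and the genotypes differed 1.06-fold with vehicle and 2.56-fold after AOM, lower in *Pla2g3*-/- as labelled.

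*Gata3*, the factor of type 2 helper T cells, which is also expressed by innate lymphoid cells of type 2 and by some epithelia, gave 26.9 ± 3.96, 35.5 ± 5.29, 309 ± 31.2 and 54.8 ± 7.06 in the same order of arrays. As for *Foxp3*, the AOM array labelled *Pla2g3*+/+ stood alone, at a scaled signal of 23.6% against 4.17% to 5.47% on the other 3. With AOM it was 5.66-fold higher for *Pla2g3*+/+ (log2 ratio 2.50 ± 0.26) and 1.16-fold lower for *Pla2g3*-/- (−0.22 ± 0.28, and 0.63 without scaling). The genotypes differed 1.31-fold with vehicle, within 2 combined errors, and 5.03-fold after AOM.

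*Tbx21*, the factor of type 1 helper and cytotoxic T cells, followed the lineage genes rather than the other factors, with 54.9 ± 6.36 and 48.9 ± 6.49 with vehicle, 43.6 ± 6.35 after AOM for *Pla2g3*+/+ and 15.2 ± 5.14, not well above background, after AOM for *Pla2g3*-/-. The vehicle arrays lay within 2 combined errors of each other (scaled signals of 8.51% and 7.52%), and both were above the AOM arrays (3.33% and 1.30%). After scaling, the fall with AOM was 2.56-fold for *Pla2g3*+/+ and at least 5.14-fold for *Pla2g3*-/-. Without scaling, the log2 ratio of AOM to vehicle was −0.33 for *Pla2g3*+/+, within 2-fold, and at most −1.5 for *Pla2g3*-/-. After AOM *Pla2g3*-/- was at least 2.28-fold below *Pla2g3*+/+.

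Of the effector genes, both granzymes were over 2-fold lower after AOM under each genotype label once scaled. *Gzma*, encoding a granule protease of cytotoxic lymphocytes, gave 4752 ± 475 and 6138 ± 614 with vehicle and 981 ± 98.2 and 121 ± 13.2 after AOM. Each AOM array was well below the vehicle arrays, and the AOM arrays were far apart from each other. AOM over vehicle was 9.82-fold lower for *Pla2g3*+/+ (log2 ratio −3.30 ± 0.20) and 90.9-fold lower for *Pla2g3*-/- (−6.51 ± 0.21), and *Pla2g3*-/- was 1.28-fold above *Pla2g3*+/+ with vehicle, within 2 combined errors, and 7.21-fold below it after AOM. *Gzmb*, the granzyme that cleaves caspases in target cells, gave 403 ± 40.4, 475 ± 47.6, 251 ± 25.3 and 32.2 ± 4.91 in the same order. Its order across arrays was that of *Gzma*, with AOM over vehicle 3.26-fold lower for *Pla2g3*+/+ and 26.5-fold lower for *Pla2g3*-/-, and *Pla2g3*-/- 1.17-fold above *Pla2g3*+/+ with vehicle and 6.95-fold below it after AOM. Without scaling, the log2 ratio of AOM to vehicle for *Gzmb* was −0.685 for *Pla2g3*+/+, within 2-fold, and −3.88 for *Pla2g3*-/-.

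*Ifng*, encoding the cytokine of type 1 helper, cytotoxic and natural killer cells, differed from the granzymes in that its *Pla2g3*+/+ array was no lower after AOM. It gave 37.4 ± 4.88 and 21.5 ± 4.78 with vehicle, 86.7 ± 9.80 after AOM for *Pla2g3*+/+ and 4.84 ± 4.83, not well above background, after AOM for *Pla2g3*-/-. After scaling, the *Pla2g3*+/+ arrays lay within 2 combined errors of each other (log2 ratio 0.19 ± 0.25), and the vehicle array labelled *Pla2g3*-/- (3.31%) lay below them. The genotypes differed 1.75-fold with vehicle, the widest gap of any member there, and at least 4.53-fold after AOM, lower in *Pla2g3*-/- each time. The vehicle log2 ratio (−0.81 ± 0.37) came from dim signals, and it ran from −0.82 to −0.17 under other processing. AOM over vehicle was 1.14-fold higher for *Pla2g3*+/+ and at least 2.26-fold lower for *Pla2g3*-/-, and without scaling the first was past 2-fold (log2 ratio 1.21).

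Counted over the 9 members, the genotypes as labelled differed little with vehicle and widely after AOM. With vehicle, 0 members were over 2-fold higher in *Pla2g3*-/- and 0 lower, beside 1.92% of 16391 genes with a ratio that were higher and 1.32% that were lower. The members' median log2 ratio was 0.02 and ran from −0.81 for *Ifng* to 0.39 for *Gata3*, against −0.02 over all genes. After AOM the counts were 0 higher and 7 of 9 lower, 3 of them as bounds, beside 15.1% of 17194 genes higher and 12.9% lower. With bounds taken at their limit, all 9 log2 ratios were below 0, around a median of −1.36 (all genes, 0.03), from −2.85 for *Gzma* to −0.12 for *Cd4*. The ratios of *Cd8a*, *Tbx21* and *Ifng* could thus lie lower than their bounds. *Cd3e* and *Cd4* were the members that did not pass 2-fold. With another background correction (normexp with an offset of 50, then quantile normalization), 3 members were lower instead of 7, namely *Gata3*, *Gzma* and *Gzmb*.

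With AOM over vehicle under the *Pla2g3*+/+ label, 2 members were over 2-fold higher (*Foxp3* and *Gata3*) and 4 lower (*Cd8a*, *Tbx21*, *Gzma* and *Gzmb*), beside 15.1% of 17277 genes higher and 22.4% lower. Under the *Pla2g3*-/- label, 0 were higher and 6 lower (*Cd3e*, *Cd8a*, *Tbx21*, *Ifng*, *Gzma* and *Gzmb*, 3 as bounds), beside 9.65% of 16514 genes higher and 15.1% lower. The members' median log2 ratios were −0.99 and −1.34, against −0.17 and −0.08 over all genes, with bounds taken at their limit. Without scaling, the medians over all genes were 0.87 and 0.76, since the AOM arrays were brighter, and 1 member, *Gzma*, was then over 2-fold lower under the *Pla2g3*+/+ label. The comparisons share arrays in pairs and are not independent of each other.

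**Figure D2:**
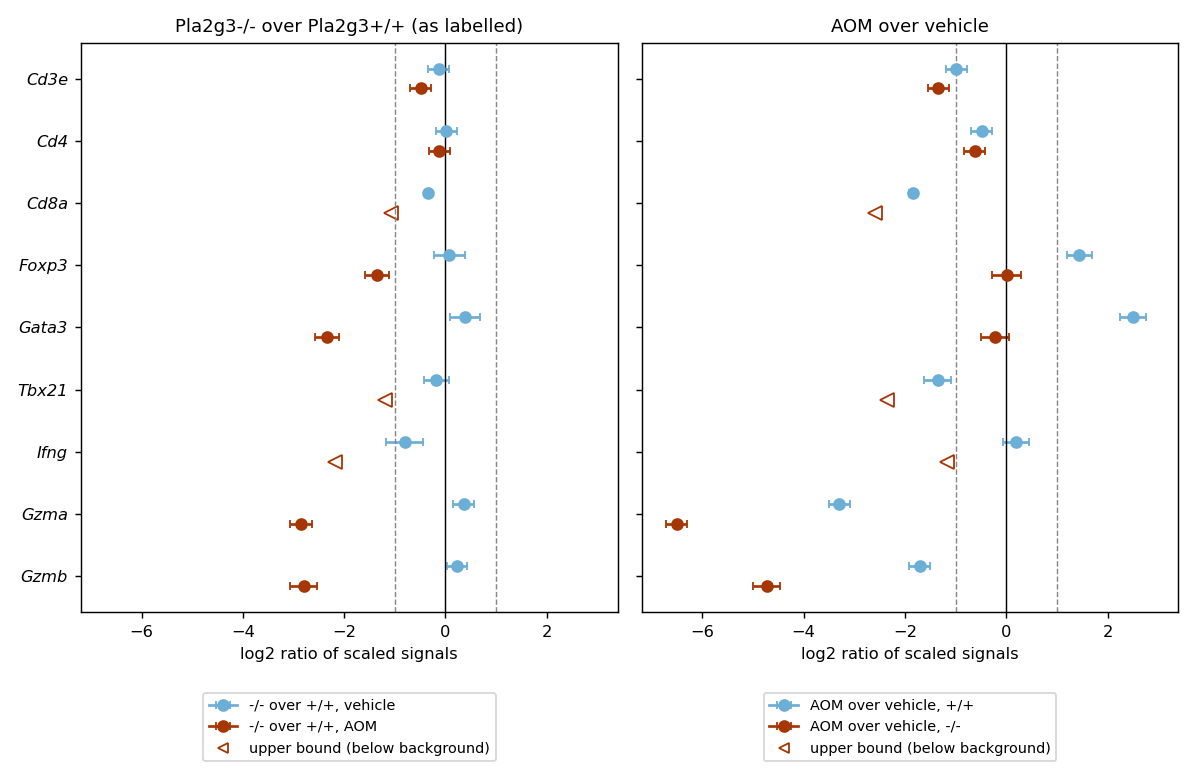
Log2 ratio of scaled signals of the probe that represents each gene, for *Pla2g3*-/- over *Pla2g3*+/+ as labelled (left, light for vehicle and dark for AOM) and for AOM over vehicle (right, light for *Pla2g3*+/+ and dark for *Pla2g3*-/-), with array errors as bars, open triangles for upper bounds where a signal was not well above background, and dashed lines at 2-fold. Bars of *Cd8a* come from replicate spots and those of the other genes from the error model. With vehicle all 9 genes lie between the dashed lines, and after AOM 7 of 9 lie to the left of the lower one.

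The difference between these ratios, after AOM minus with vehicle, was negative for all 9 members. Among the members with no bound, it was widest for *Gzma* (−3.21), *Gzmb* (−3.02) and *Gata3* (−2.72), smaller for *Foxp3* (−1.44) and smallest for *Cd3e* (−0.36) and *Cd4* (−0.14). For *Ifng* (at most −1.37), *Tbx21* (at most −1.01) and *Cd8a* (at most −0.74) only bounds were had, so their place in this order is not known. With 1 array per group this difference was not tested.

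The granzymes moved together and lie on separate chromosomes, so the 250 bases before the start of each are shown, from RefSeq on GRCm38.p6. Capitals mark letters of motifs of factors that act in T cells, on either strand, with TGTGGT for RUNX factors, AGGTGT for T-box factors and AGATAA for the GATA family. *Gzma* lies at chr13:113100982-113101231 and *Gzmb* at chr14:56262335-56262584, both on the minus strand.
Gzma: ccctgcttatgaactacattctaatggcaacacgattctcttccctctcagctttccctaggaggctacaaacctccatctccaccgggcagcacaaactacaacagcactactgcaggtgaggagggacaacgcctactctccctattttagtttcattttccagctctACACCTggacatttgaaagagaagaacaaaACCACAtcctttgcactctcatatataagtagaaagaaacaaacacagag
Gzmb: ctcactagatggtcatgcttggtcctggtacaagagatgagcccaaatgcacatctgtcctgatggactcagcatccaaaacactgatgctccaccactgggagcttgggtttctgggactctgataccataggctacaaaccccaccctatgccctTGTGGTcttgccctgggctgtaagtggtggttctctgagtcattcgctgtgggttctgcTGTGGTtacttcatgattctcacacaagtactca
The *Gzma* stretch held 1 RUNX match (as ACCACA, on the other strand) and 1 T-box match (as ACACCT), and the *Gzmb* stretch held 2 RUNX matches, with no overlap between matches. Of 32536 stretches of the same length, 13.96% held the RUNX letters, 11.89% the T-box letters and 9.97% the GATA letters. *Cd3e* held 1 T-box match, *Foxp3* 1 GATA match before 1 of its 2 listed starts, and *Cd8a*, *Gata3*, *Ifng* and *Tbx21* none of the 3. A match describes letters in this window only, and no stretch was matched for *Cd4*.

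The other genes of these programmes were read from 9 lists that hold 127 further genes on the array. With vehicle, 3 of the 101 with a ratio were over 2-fold higher in *Pla2g3*-/- as labelled and 1 lower (median log2 ratio 0.02), beside 1.92% and 1.32% of all genes. Among those higher, *Gzmd* and *Il13* were bounds from signals of 23.4 and 22.0, near the lowest detected signal of that array (14.8). Between the AOM arrays 5 of 108 were higher and 62 lower (median −1.19), beside the 15.1% and 12.9% of all genes. Under the *Pla2g3*+/+ label 38 of 108 were higher with AOM and 16 lower (median 0.41), beside 15.1% and 22.4% of all genes, and under the *Pla2g3*-/- label 5 of 100 were higher and 43 lower (median −0.69), beside 9.65% and 15.1%. These counts depend on the scaling, since without it 67 were higher and 3 lower under the *Pla2g3*+/+ label, and 19 higher and 20 lower under the *Pla2g3*-/- label. The shares of all genes given here also stand beside the counts of the single lists below.

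**Figure D3:**
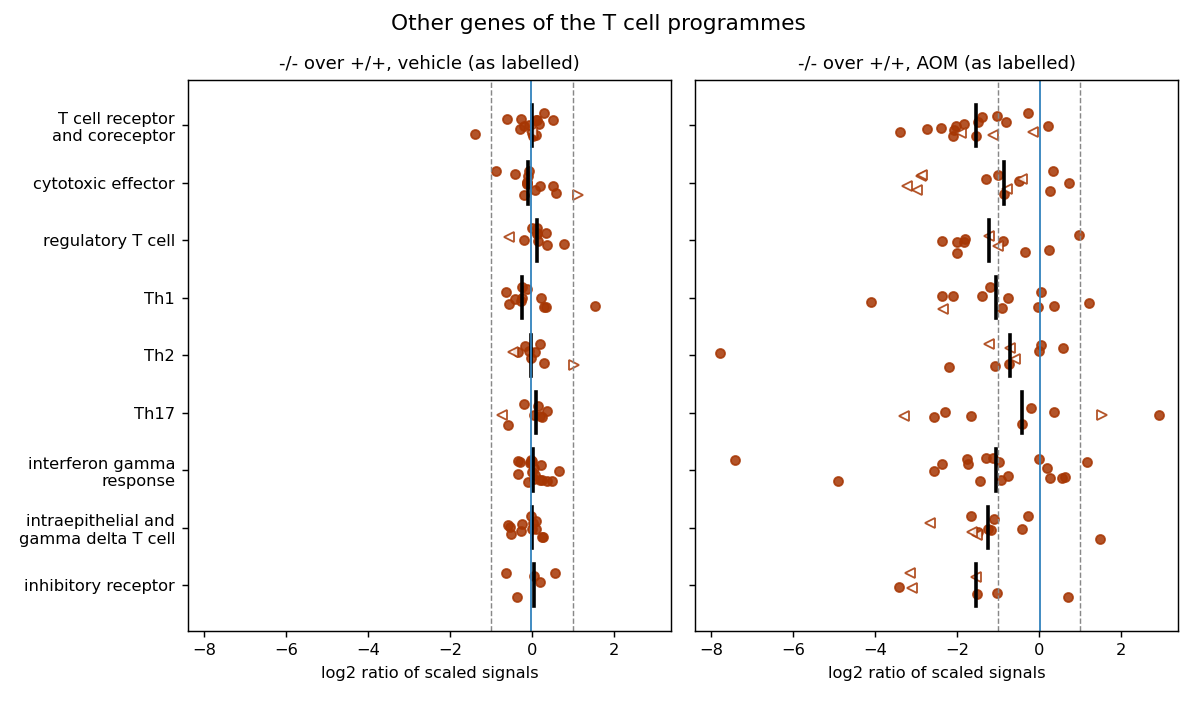
Log2 ratio of *Pla2g3*-/- over *Pla2g3*+/+ as labelled for each gene of the 9 lists, with vehicle (left) and after AOM (right). Filled circles are ratios, open triangles bounds that point away from 0, black bars the list's median, the blue line the median of all genes and dashed lines 2-fold; with vehicle the medians lie near 0, and after AOM they run from −0.41 for Th17 to −1.55 for the inhibitory receptors.

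Of the receptor and coreceptor genes, 13 of 17 with a ratio were over 2-fold lower after AOM in *Pla2g3*-/- as labelled and 0 higher (median −1.54), and 0 of 15 were higher and 1 lower with vehicle, namely *Cd28*, the costimulatory receptor, at a log2 ratio of −1.38. *Zap70*, the kinase recruited to the CD3 chains, had scaled signals of 34.9% and 33.5% with vehicle and 109% and 10.3% after AOM, and was 10.6-fold lower in *Pla2g3*-/- after AOM. The other CD3 chains differed from *Cd3e* in the size of this gap. *Cd3d* gave signals of 526 and 437 with vehicle and 546 and 73.6 after AOM, so that it was 6.63-fold lower, where *Cd3e* was 1.41-fold lower. *Cd3g* and *Cd8b1*, chosen after their values were seen because they pair with members, were 3.55-fold and at least 2.19-fold lower after AOM, and *Cd247*, the zeta chain, was 1.17-fold higher. *Cd247* lay near background, with signals of 26.0 and 27.1 on the AOM arrays, whose lowest detected signals were 16.4 and 17.1. *Cd27*, a costimulatory receptor, was below background on 3 arrays and was at least 1.11-fold lower.

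Of the cytotoxic effector genes, 0 of 13 were higher and 6 lower after AOM in *Pla2g3*-/- as labelled (median −0.86), and 1 was higher with vehicle, *Gzmd*, at least 2.17-fold. The further granzymes differed among themselves. *Gzmc* and *Gzme* were above background mainly or only on the AOM array labelled *Pla2g3*+/+ (signals of 180.0 and 151), and were at least 9.40-fold and at least 7.87-fold lower in *Pla2g3*-/-. *Gzmm* was 1.26-fold higher and *Nkg7*, a granule membrane protein, 1.67-fold higher in *Pla2g3*-/- after AOM. AOM over vehicle gave 3 higher and 7 lower of 13 under the *Pla2g3*+/+ label (median −1.09) and 0 higher and 8 lower under the *Pla2g3*-/- label (−1.07).

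Among the genes of regulatory T cells, 6 of 11 were over 2-fold lower after AOM in *Pla2g3*-/- as labelled and 0 higher (median −1.23), and 0 of 10 passed 2-fold with vehicle. *Icos*, a costimulatory receptor, had a scaled signal of 28.2% on the AOM array labelled *Pla2g3*+/+ and of 5.48% on the other AOM array, and *Tgfb1*, a cytokine that favors regulatory T cells, of 35.0% and 8.70%, against 8.60% and 12.3% for *Pla2g3*+/+ with vehicle, so that both had the AOM array labelled *Pla2g3*+/+ as the single high array, like *Foxp3*. *Ikzf2* and *Entpd1*, the factor Helios and an ectonucleotidase, were 0.97 and 0.23 higher on the log2 scale in *Pla2g3*-/- after AOM. AOM over vehicle gave 6 of 11 higher and 0 lower under the *Pla2g3*+/+ label, beside 15.1% and 22.4% of all genes. Under the other label 2 of 9 were higher and 2 lower, beside 9.65% and 15.1% of all genes.

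Among type 1 helper genes, 1 of 12 was higher and 6 lower after AOM in *Pla2g3*-/- as labelled (median −1.06). *Tnf* went from a scaled signal of 82.8% to 4.80% between the AOM arrays, and *Stat4*, which relays interleukin 12, from 15.4% to 2.98%, with log2 ratios of −4.11 and −2.37. *Il18*, a cytokine also made by epithelium, went the other way (361% and 831%, log2 ratio 1.20), as did *Hlx* within 2-fold (0.37). With vehicle, *Il12rb1*, a receptor chain for interleukin 12, was 1.54 higher on the log2 scale, which was the 1 call among 11.

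Among type 2 helper genes, 4 of 10 were lower and 0 higher after AOM (median −0.72). *Il1rl1*, the receptor of interleukin 33, carried by type 2 helper T cells, mast cells and innate lymphoid cells, had scaled signals of 18.7% and 21.6% with vehicle and 1441% and 6.51% after AOM, a log2 ratio of −7.79 between the AOM arrays. *Il4ra*, the receptor chain for interleukin 4, had 60.3% and 13.2% after AOM (−2.19). *Maf* (0.59) and *Tslp* (0.05) stayed within 2-fold, and *Il13* was at least 1.03 higher on the log2 scale with vehicle, the 1 call among 9. Mast cell markers, like *Gata3* and *Il1rl1*, were mostly highest on the AOM array labelled *Pla2g3*+/+. Of 10, 9 were over 2-fold higher with AOM under that label (median 4.96) and 8 lower in *Pla2g3*-/- after AOM (−3.12). Under the *Pla2g3*-/- label 5 of 9 were higher with AOM and 2 lower (1.15), while *Gata3* was at −0.22 and *Il1rl1* at −1.73. The summed scaled signals were 194%, 162%, 2356% and 158%, of which *Kit* gave 123% on the second array and 75.3% on the last. The part of mast cells in the *Gata3* values was not tested.

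Among Th17 genes, 2 of 9 were higher and 4 lower after AOM in *Pla2g3*-/- as labelled (median −0.41), beside 15.1% and 12.9% of all genes. *Il23r*, above background on the AOM array labelled *Pla2g3*-/- only (signal of 42.6), was at least 1.54 higher on the log2 scale. *Ccr6*, a chemokine receptor of Th17 and B cells, was 2.57 lower, and *Csf2*, above background on the AOM array labelled *Pla2g3*+/+ only, at least 3.30 lower.

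Interferon gamma acts through its receptor, Janus kinases and a set of induced genes. Of 18 such genes, 9 were over 2-fold lower and 1 higher after AOM in *Pla2g3*-/- as labelled (median −1.05), and 0 passed 2-fold with vehicle. *Cxcl9* and *Cxcl10*, chemokines that recruit T cells, had scaled signals of 29.0%, 34.2%, 368% and 2.15%, and of 75.9%, 60.2%, 355% and 11.8%, with log2 ratios of −7.42 and −4.90 between the AOM arrays. As for *Ifng*, the AOM arrays were the highest and the lowest of the 4. The receptor chain *Ifngr1* was 2.26-fold higher and the kinase *Jak2* 1.55-fold higher in *Pla2g3*-/- after AOM.

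Of 12 genes of intraepithelial and gamma delta T cells on the array, 8 of 11 with a ratio were lower after AOM and 1 higher (median −1.26), and 0 of 12 passed 2-fold with vehicle. *Il2rb*, the receptor chain shared by interleukins 2 and 15, was at least 6.34-fold lower in *Pla2g3*-/-, and *Ccr9*, a receptor that guides T cells to the gut, 3.16-fold. *Il15*, which sustains intraepithelial lymphocytes, was 2.79-fold higher, and *Cd244a* was within 2-fold (−0.26). Of 7 inhibitory receptor genes, 6 were lower after AOM and 0 higher (median −1.55), led by *Havcr2*, encoding TIM-3, at −3.43 and *Btla* at no more than −3.16, while *Tox* was at 0.69 and *Cd200r1* at −1.03.

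Each list of other leukocytes had a median below 0 between the AOM arrays, as the members did, though some of the brightest markers were higher in *Pla2g3*-/-. Pan-leukocyte markers had summed scaled signals of 1713% and 1722% with vehicle and 2235% and 599.7% after AOM, with 10 of 10 detected on every array and 8 of 10 over 2-fold lower in *Pla2g3*-/- (median −1.60), *Cd52* and *Coro1a* among them (−2.61 and −2.21). Natural killer cells also carry *Ifng*, *Gzma*, *Gzmb* and *Tbx21*. Of 7 natural killer markers, 3 and 2 were detected with vehicle and 5 and 1 after AOM, with sums of 52.3%, 54.8%, 77.7% and 40.6%. *Klra1* was detected on all 4 arrays and made up most of each sum (38.3%, 45.1%, 66.5% and 37.7%), while *Klrc1* was among those not well above background on the AOM array labelled *Pla2g3*-/-. B cell markers, like the granzymes, were lower on both AOM arrays, with sums of 366%, 278%, 145% and 53.0%, with 10, 8, 8 and 6 of 10 detected and a median of −2.25 between the AOM arrays (*Cd79b* −2.82 and *Cd22* −0.02). The medians of the lymphoid follicle stroma, macrophage and neutrophil lists between the AOM arrays were −2.92, −1.19 and −3.23, with sums of 319% and 168%, 2940% and 2333%, and 9516% and 6189%. Over 2-fold, 6, 7 and 6 of 9 were lower in *Pla2g3*-/- and 1 of 9 was higher in each list. Of the 2 brightest markers of each, *Cxcl13* (1.20) and *Lyve1* (0.95), *Itgam* (1.08), and *Csf3r* (0.28) and *Ly6g* (1.52) were higher, and *Csf1r* (−1.11) was lower. The part of any of these cells in the members' values was not tested.

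Markers of colon epithelium and smooth muscle moved the other way between the AOM arrays. Colon epithelium markers had sums of 64091% and 69158% with vehicle and 20980% and 53782% after AOM, and smooth muscle markers of 51753%, 54300%, 3123% and 49821%, with 6 and 10 of 10 higher in *Pla2g3*-/- after AOM. Wnt targets of colon tumors moved the same way as the members, with sums of 860%, 864%, 7881% and 915% and 9 of 10 lower in *Pla2g3*-/- after AOM. Between the AOM arrays, 1 of 8 squamous markers was higher and 1 lower, and 1 of 4 pancreatic acinar markers higher and 1 lower. The shares of all genes there were 15.1% and 12.9%. Squamous markers had sums of 799%, 709%, 817% and 2486%, of which *Krt5* gave 1527% on the last array. Pancreatic acinar markers had sums of 47.1%, 4502%, 452% and 25.9%, of which *Pnliprp1* gave 434.5% on the third. The part of tissue composition was not tested either.

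**Figure D4:**
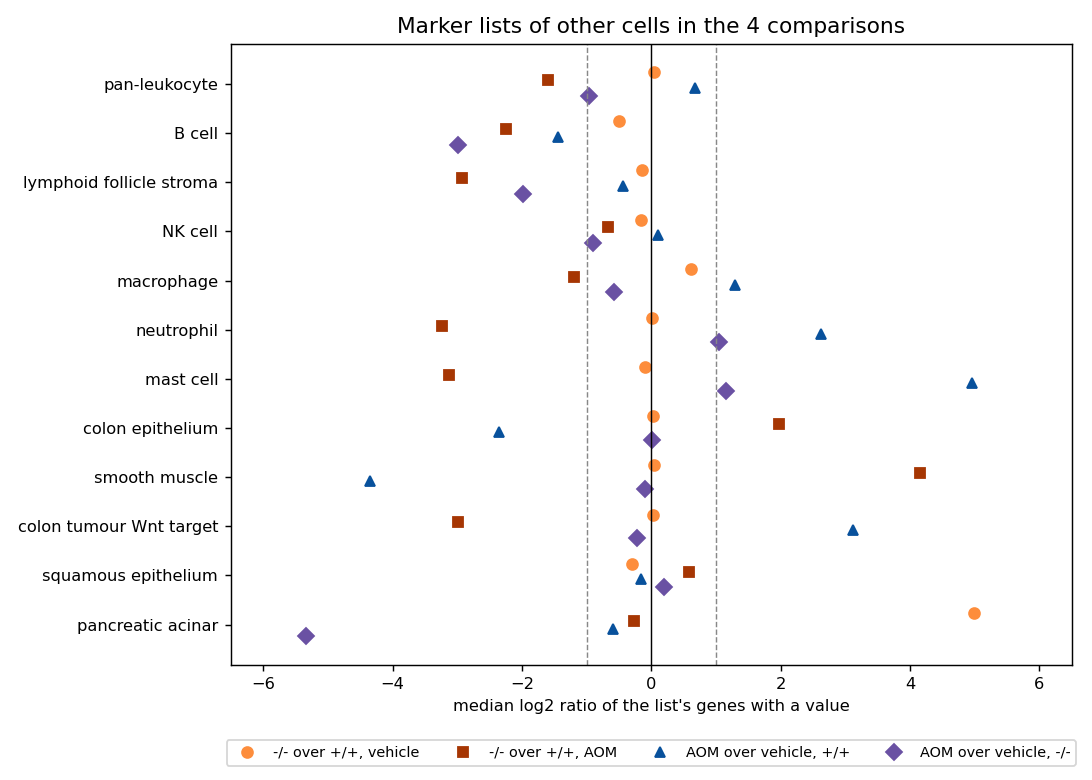
Median log2 ratio of 12 marker lists in the 4 comparisons, with a circle for *Pla2g3*-/- over *Pla2g3*+/+ with vehicle, a square for the same after AOM, a triangle for AOM over vehicle under the *Pla2g3*+/+ label and a diamond for the *Pla2g3*-/- label, and dashed lines at 2-fold. All circles except that of the pancreatic acinar list (4.98) lie within 2-fold, and between the AOM arrays the leukocyte lists lie left of 0 while smooth muscle (4.15) and colon epithelium (1.97) lie right.

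For the 6 members well above background on all 4 arrays, the 14787 genes detected on all 4 were ranked by the Euclidean distance between log2 scaled signals centred on each gene's mean over the 4 arrays. *Gzma* had no gene within 0.5, and its nearest were *Prap1* at 1.02, *Plet1* at 1.07 and *Ccl5*, a chemokine made by T cells, at 1.15. *Gzmb* had 1 within 0.5, *Cpn1* at 0.34, followed by *Cd79b* at 0.50 and *Mzb1* at 0.64, both genes of B lineage cells. *Gata3* had 84 within 0.5, led by *Znrf3*, *Tbx1* and *Pcdh12* (0.15 to 0.21), and *Foxp3* had 586, led by *Pde10a*, *Dbn1* and *Cdk5r1* (0.04 to 0.06). *Cd3e* (959, led by *Gm9519*, *Chchd1* and *Gfod2*) and *Cd4* (3143, led by *Polr2d*, *Gm4889* and *Ccdc12*) had flatter profiles that many genes share. With 4 arrays these distances describe the arrays only.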

How the data were processed

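Total RNA of 4 colon pools was labelled with Cy3 (27.7 ng each) and hybridised, 1 array per group. The authors deposited spot intensities of Agilent Feature Extraction 11.5.1.1, background-subtracted and not scaled between arrays, and a table that was checked to be the linear ratio of these intensities to the array's 75th percentile. Groups follow the deposited labels. Here, control and outlier spots were left out, log2 intensities of replicate spots were averaged, and the 75th percentile of each array was subtracted. A probe on several spots counted as detected when at least 50% of them were well above background. Probes were named through RefSeq symbols (GRCm38.p6); coordinates are mm9. The probe with the highest mean stood for the gene. A gene detected on 1 of the arrays compared was given a bound, for which the dim array took its lowest detected signal (10.7 to 17.1) or the probe's own if higher. Medians, ranges and the choice of named genes took a bound at this limit. Over 2-fold was counted. The members and lists were chosen with earlier results of these data known. Named from each T cell list were the 2 genes with the highest and the 2 with the lowest ratio between AOM arrays and any past 2-fold with vehicle, and from marker lists 1 or both of the 2 brightest where any is named; *Lmod1* and *Krt5* were chosen after their values were seen. 1 gene that this rule would name is not reported here. The number of arrays limits the precision. Alternatives used limma 3.58.1 in R 4.3.3, and scripts, tested on simulated data, ran in Python 3.11.15 with pandas 2.3.3 and numpy 2.4.6.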

Additional observations from a re-analysis of the deposited data

How the results depend on the processing

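No member's call reversed under the 13 alternatives (scaling, background correction, dim signals, choice of probe, the deposited table and fold thresholds of 1.5 and 4). With normexp, 3 members instead of 7 were lower in *Pla2g3*-/- as labelled after AOM, 3 instead of 6 lower with AOM under the *Pla2g3*-/- label, and 1 instead of 2 higher and 2 instead of 4 lower under the *Pla2g3*+/+ label. Without scaling, 1 instead of 4 was lower under the *Pla2g3*+/+ label. Counting only genes well above background on both arrays gave 4 lower after AOM between the genotypes and 3 lower with AOM under the *Pla2g3*-/- label. At 4-fold, 4 were lower between the genotypes after AOM, and 1 was higher and 1 lower with AOM under the *Pla2g3*+/+ label, and at 1.5-fold 1 was lower with vehicle. The cause was not tested for normexp and for no scaling, while the others count fewer members or another gap by construction. The *Cd8a* ratio after AOM fell short of 2-fold with the mean over its probes (−0.74), its dimmer probe (−0.40) and normexp (−0.27), and normexp also brought *Foxp3* (−0.51), *Tbx21* (−0.23) and *Ifng* (−0.53) within it. The other 93 counts of members lay within 1.5 times of those reported. Counts over the 127 genes of the T cell lists moved more. Without scaling, 67 instead of 38 were higher and 3 instead of 16 lower with AOM under the *Pla2g3*+/+ label, and 19 instead of 5 and 20 instead of 43 under the *Pla2g3*-/- label. With normexp these 4 counts were 22, 7, 2 and 16, the 62 lower between the genotypes after AOM became 33, and 0 instead of 3 were higher and 0 instead of 1 lower with vehicle. With normexp, the lower counts after AOM of single lists became 7 instead of 13 (receptor and coreceptor), 2 instead of 6 (cytotoxic), 2 instead of 6 (Th1), 2 instead of 4 (Th2), 1 instead of 8 (intraepithelial) and 3 instead of 6 (inhibitory receptors). Counting only genes well above background on both arrays gave 2, 5 and 3 for the cytotoxic, intraepithelial and inhibitory lists, and taking signals below background as they stand gave 10 for the cytotoxic and 7 for the Th2 list. At 4-fold, 29 of the 62 were lower. No paired analysis was possible because the labels give 1 array per group and no replicate numbers, and for the same reason no array could be left out. Several members lay close to background. On the AOM array labelled *Pla2g3*-/-, *Cd8a*, *Tbx21* and *Ifng* were not well above it, so that only bounds could be had, and elsewhere their signals ran from 21.5 to 86.7. Outside the AOM array labelled *Pla2g3*+/+, *Foxp3* (26.1 to 50.1) and *Gata3* (26.9 to 54.8) were well above background but low too.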
